A study of Mus musculus with 2 samples.

Results

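The AP-2 transcription factors examined were Tfap2a, Tfap2b and Tfap2c, chosen by gene symbol from the authors' deposited comparison of distal with proximal limb-mesenchymal organoid tissue. Of these 3 genes, 2 had a row among the 13916 protein-coding genes of that table, Tfap2a and Tfap2b. Tfap2c had no row there and was not analysed here. The family was picked with its distal and proximal values already known, so those values are given below as a description and carry no test of their own.

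Both groups were organoids of embryonic limb mesenchymal cells of the Slc:ICR mouse strain, a limb-bud connective tissue lineage, kept for 48 h in medium with Fgf8b and Wnt3a, a fibroblast growth factor and a WNT ligand. The organoids, 5 in number and derived from 4 cultures, were frozen on day 2, and no mutation, untreated culture or embryo age is named in the labels. Photo-isolation chemistry, in which ultraviolet light frees cDNA made inside a tissue section only where the section is lit, was used to collect 5 distal and 5 proximal regions. All regions of 1 side went into 1 library, so there was 1 distal and 1 proximal library, and side and library cannot be told apart. The labels do not say which region came from which organoid, so the spread between regions may be technical in part.

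AP-2 proteins bind DNA as dimers, through a conserved basic and helix-span-helix part near the C terminus, at GC-rich palindromes of the form GCCNNNGGC. They are best known from surface ectoderm, neural crest and their derivatives, and they are also present in limb bud mesenchyme under the distal ectoderm. Loss of Tfap2a in mice disturbs the face, body wall and limbs, and changes in human TFAP2B cause Char syndrome, which includes malformed little fingers. CITED proteins bring the acetyltransferases p300 and CBP to AP-2, and KCTD1 and KCTD15 inhibit AP-2 activity.

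Tfap2a (ENSMUSG00000021359) lies on the minus strand of GRCm38 at chr13:40715302-40738376, and Tfap2b (ENSMUSG00000025927) on the plus strand at chr1:19208914-19238576. Both genes were higher in distal regions. Their upstream sequences are shown because both stood higher on the same side. The table of RefSeq promoters (GRCm38.p6) held 2 start sites for Tfap2a and 1 for Tfap2b. The 250 bases before a start site were searched on both strands for 5 patterns: GCCNNNGGC, the AP-2 palindrome, and its form with a spacer of 4 instead of 3 bases; TAATTA, a homeodomain core; CTTTGAT, a TCF/LEF core; and TTTATNG, a core described for posterior Hox proteins. Capitals mark a match, each sequence runs 5′ to 3′ on the strand of its gene, and the last base shown is the one before the start site. The first sequence is that of Tfap2a at chr13:40734921-40735170, the second that of Tfap2b at chr1:19211804-19212053.
Tfap2a: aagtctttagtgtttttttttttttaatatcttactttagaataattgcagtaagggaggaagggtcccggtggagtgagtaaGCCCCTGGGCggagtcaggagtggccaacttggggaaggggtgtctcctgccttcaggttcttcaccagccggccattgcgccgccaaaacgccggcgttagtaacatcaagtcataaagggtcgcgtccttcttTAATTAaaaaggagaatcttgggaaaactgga
Tfap2b: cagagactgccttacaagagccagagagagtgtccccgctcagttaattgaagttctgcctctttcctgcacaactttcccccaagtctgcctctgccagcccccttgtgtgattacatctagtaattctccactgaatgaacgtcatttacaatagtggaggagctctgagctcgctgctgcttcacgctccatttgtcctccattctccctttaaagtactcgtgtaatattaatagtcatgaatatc

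The Tfap2a window held 1 AP-2 palindrome with the longer spacer, GCCCCTGGGC, beginning at position -167 from the start site, and 1 TAATTA beginning at position -32. Of all 32851 promoter windows of this length, 12.3% held the palindrome with the longer spacer and 4.84% held TAATTA. The window of the other Tfap2a start site, at chr13:40733796-40734045, and the Tfap2b window held none of the 5 patterns. The shorter palindrome was in 13.7% of all windows, CTTTGAT in 3.21% and TTTATNG in 9.81%. A match is a run of letters and not evidence of binding.

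Each region's depth enters through its size factor, the number by which its counts are divided. Size factors were 0.329 to 0.832 in distal regions and 1.502 to 2.42 in proximal regions, which corresponds to about 46991 to 118978 and 214774 to 345649 counts per region. The summed depth was 3.30 times higher in proximal. Regions are numbered here from the shallowest (1) to the deepest (5) of a side, and these numbers are not the barcode numbers of the labels. The authors' deposited table gives only a mean over all regions, a log2 change and its standard error per gene, and the region counts below are, for each gene, the only set of whole counts found that gives these values.

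Tfap2a was higher in every distal region than in any proximal region. Its whole counts were 7, 6, 3, 5 and 9 in distal regions 1 to 5 and 6, 3, 6, 3 and 4 in proximal regions 1 to 5. Divided by the size factors, the distal regions stood at 21.3, 11.8, 5.37, 7.16 and 10.8 normalized counts. The proximal regions stood at 3.99, 1.91, 3.07, 1.36 and 1.65 normalized counts. The groups did not overlap, although the lowest distal region exceeded the highest proximal region by little, and both rested on single-digit counts. How many of all genes show no overlap was not counted, and Adamts20, Rarg and Pank4, described below, showed none. The family was picked on this difference between the sides, so nothing is read from the missing overlap.

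Over a side, Tfap2a had 30 distal and 22 proximal counts. The distal mean was 11.3 ± 6.18 normalized counts (SD, n = 5 regions of 1 library) and the proximal mean 2.40 ± 1.10 (SD, n = 5 regions of 1 library). Pooled over depth, the distal level was 10.2 with a 95% exact Poisson interval of 6.91 to 14.6, and the proximal level was 2.28 with an interval of 1.43 to 3.45. These intervals cover counting error only. The authors' deposited table lists Tfap2a at 2.19 ± 0.51 (log2 change and its standard error), a 4.55-fold difference, with 0.00391 as the adjusted p. The interval of that change, at 95% from the standard error in the authors' deposited table, is 1.18 to 3.19. The standard error and adjusted p in the authors' deposited table treat the 10 regions as independent replicates, although they come from 5 organoids and 2 libraries, so they do not measure the spread between libraries or cultures.

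Tfap2b was also higher in distal regions, with equal numbers of counts from the shallower distal and the deeper proximal library. It had 78 counts on each side. The distal regions 1 to 5 held 20, 7, 12, 11 and 28 counts, which are 60.9, 13.7, 21.5, 15.8 and 33.6 normalized counts. The proximal regions 1 to 5 held 21, 8, 15, 5 and 29 counts, or 14.0, 5.11, 7.67, 2.26 and 11.996 normalized counts. The sides touched, since distal region 2 lay just under proximal region 1, and in 24 of the 25 pairs of a distal with a proximal region the distal one was higher.

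The Tfap2b regions were spread more widely than those of Tfap2a. The distal mean was 29.1 ± 19.4 normalized counts (SD, n = 5 regions of 1 library) and the proximal mean 8.20 ± 4.82 (SD, n = 5 regions of 1 library). The highest proximal region exceeded the lowest by 6.18-fold, against 2.94-fold for Tfap2a. The distal regions spanned 4.44-fold for Tfap2b and 3.97-fold for Tfap2a. Pooled over depth, Tfap2b stood at 26.6 in distal (95% exact Poisson interval 21.1 to 33.2) and 8.08 in proximal (6.39 to 10.1). In the authors' deposited table its log2 change was 1.79 ± 0.47 (standard error), a 3.45-fold difference, at an adjusted p of 0.0179. The dispersion that gives the standard error of the authors' deposited table was 0.197 for Tfap2b and 0.120 for Tfap2a.

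**Figure D1:**
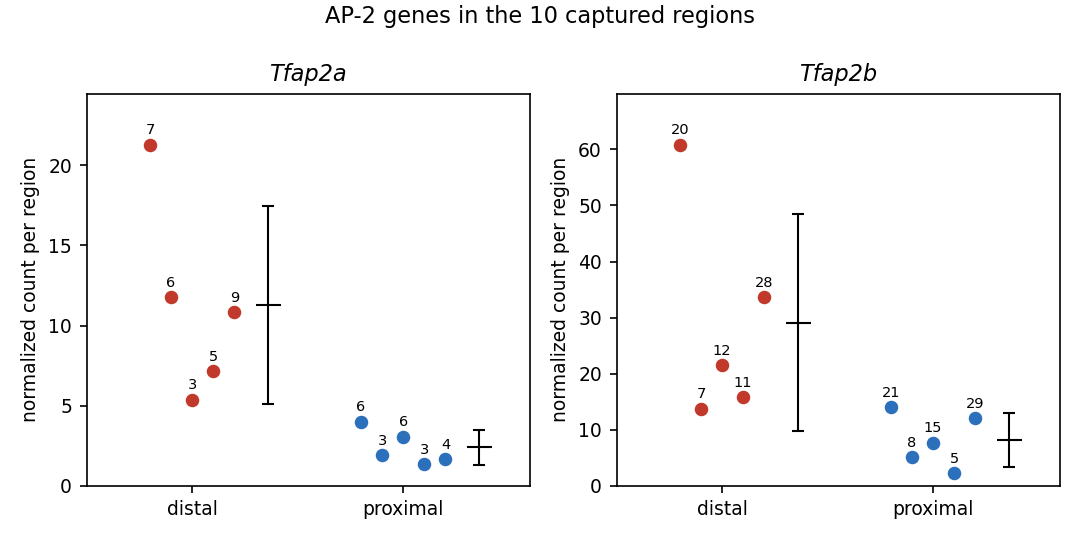
Normalized counts of Tfap2a (left) and Tfap2b (right) in each of the 5 distal (red) and 5 proximal (blue) regions, ordered from shallowest to deepest, with the whole count written above each point and the mean ± SD of the regions of a side in black. The Tfap2a sides do not overlap, and the lowest distal Tfap2b region, at 13.7, lies just under the highest proximal one, at 14.0.

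Both members passed the limit of 0.05 on the adjusted p that the authors' deposited table gives, where 0.395% of all genes did so with a higher distal value and 0.977% in either direction. The members were chosen for this contrast, so nothing is read from that count. Among the 55 genes called higher in distal, Tfap2a had the 4th largest log2 change and Tfap2b the 8th, and by adjusted p they were 30th and 42nd. These ranks come from the values the family was picked on. Every call had a ratio of change to standard error of at least 3.5. Genes with large standard errors, such as 0.51 for Tfap2a and 0.47 for Tfap2b, were therefore called only at large changes. The log2 changes of Tfap2a and Tfap2b differed by 0.40, less than the standard error of either in the authors' deposited table. Fewer AP-2 expressing cells and less AP-2 RNA per cell cannot be told apart in these pooled regions.

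**Figure D2:**
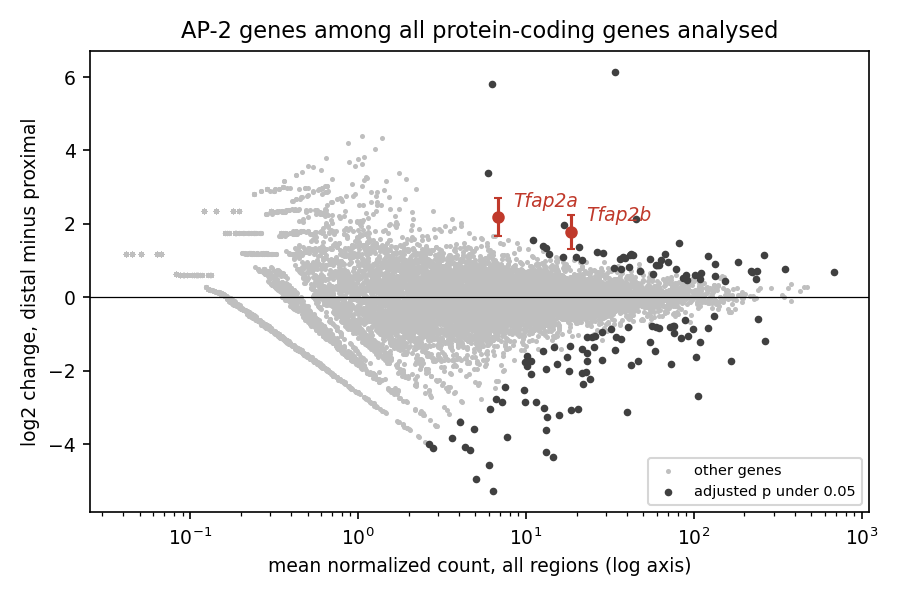
Log2 change (distal minus proximal) against the mean normalized count on a log axis for every gene in the authors' deposited table, with calls at an adjusted p under 0.05 in dark grey and Tfap2a and Tfap2b in red with their standard errors. Tfap2a at 2.19 and Tfap2b at 1.79 lie near the upper edge for their means, and genes to the far left rest on a few counts.

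The shallowest region of each side was the highest of its side for both members. Distal region 1 had the highest value of all 10 regions for Tfap2a and for Tfap2b, and proximal region 1 was the highest proximal region for both. Proximal region 4 was the lowest proximal region for both. The distal order otherwise differed, since region 3 was lowest for Tfap2a and region 2 for Tfap2b. Whether depth has a part in the order of the regions was not tested.

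Each region was left out in turn to see how much the size of the difference rests on it. The direction could not change, since the distal region was higher in 25 of 25 pairs for Tfap2a and in 24 for Tfap2b. With the dispersion held, leaving out each region in turn gave log2 changes of 1.92 to 2.42 for Tfap2a and 1.39 to 2.05 for Tfap2b. The lowest value of each came without distal region 1, at 1.92 ± 0.55 (standard error) for Tfap2a and 1.39 ± 0.50 for Tfap2b. The highest came without proximal region 1. All 10 values of each gene lay within 1 standard error of the value from all regions, with which each fit shares all regions but 1. The ratio of change to standard error was at least 3.52 for Tfap2a, just above 3.5, the smallest ratio of any call in the authors' deposited table. For Tfap2b it lay under that value in 4 of 10 cases, at 2.79 without distal region 1, 3.13 without proximal region 4, 3.39 without proximal region 2 and 3.40 without distal region 5. The Tfap2b call therefore rests on each of these 4 regions, as far as that ratio shows, since p-values were not adjusted again over all genes.

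**Figure D3:**
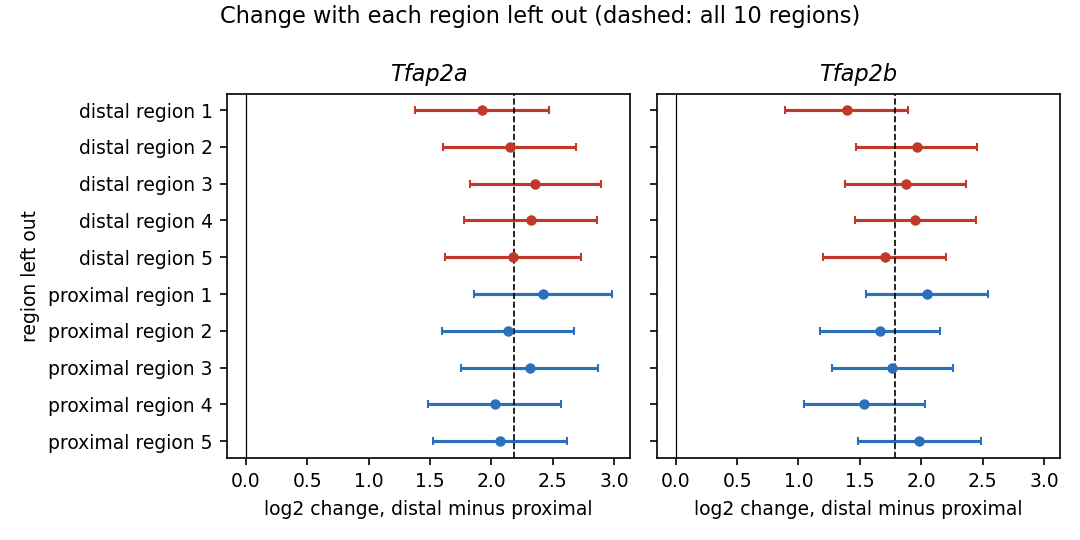
Log2 change (distal minus proximal) of Tfap2a (left) and Tfap2b (right) with the region named at the left taken out, red for distal and blue for proximal regions, with standard errors as bars and the value from all 10 regions as a dashed line. All values lie above 0, from 1.92 to 2.42 for Tfap2a and from 1.39 to 2.05 for Tfap2b.

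The surroundings of the genes were examined next. Of the 2 nearest protein-coding genes on either side of each member, 4 of 8 had a row in the table and none was called. Gcnt2, which encodes a glycosyltransferase and lies 121.4 kb from Tfap2a, had 0 distal and 4 proximal counts. Pak1ip1, at 262.6 kb, stood at a log2 change of -0.09 ± 0.37 (standard error) in the authors' deposited table, and Slc35b3, at 1754.4 kb, at -0.65 ± 0.58. Beside Tfap2b, Pkhd1, at 819.2 kb, had 0 distal and 2 proximal counts, and its sides cannot be compared at this depth. Tfap2d, the AP-2 gene 42.6 kb from Tfap2b, and Ofcc1, Defb41, Il17a and Tfap2e were not analysed here.

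The counting bears on Tfap2a in particular. The GENCODE M21 annotation places 3 antisense genes, Gm47061, Gm26688 and Gm47067, over Tfap2a, and each has an exon that overlaps a Tfap2a exon. Whether the counting used the strand is not given in the sources used here, so reads of Tfap2a and of these genes cannot be told apart. No gene overlaps Tfap2b in that annotation. The last 300 bases of the coding transcripts of both members matched no other gene over 200 bases at 95% identity.

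Of 9 partners and regulators of AP-2 reported here 8 had a row, and none of the 8 was called, with 0 at an unadjusted p under 0.05 in the authors' deposited table. The count covers these genes only and not every partner that was listed. Their median log2 change in the authors' deposited table was 0.08, beside 0.07 over all genes, and it lies between the values of Cited2 and of Cited1, which rests on 3 counts. The median was 0.00 over the 7 whose mean reached 1.

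The coactivators and inhibitors of AP-2 differed by less than their errors. In the authors' deposited table the log2 change was 0.00 for Cited2 (standard error 0.38), -0.27 for Ep300 (0.27) and -0.08 for Crebbp (0.18), which encode the CITED2, p300 and CBP proteins. The sign of Cited2 changed on centring. Kctd15 stood at 0.18 ± 0.24 and Kctd1 at -0.05 ± 0.46 (log2 change and standard error in the authors' deposited table). Kctd1 had 20 distal and 67 proximal counts, and its pooled levels were 6.83 in distal and 6.94 in proximal. Yeats4, which encodes the AP-2 binding protein GAS41, and Wwox, which encodes a WW domain protein that binds AP-2 gamma, had log2 changes of 0.31 (standard error 0.36) and 0.47 (0.78) in the authors' deposited table. Cited1 had 0 distal and 3 proximal counts, too few on either side for a comparison.

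Of 12 genes described in other tissues as AP-2 targets and reported here, 11 had a row and 1 was called, towards proximal, where 0.582% of all genes were. Igfbp5 (ENSMUSG00000026185), an insulin-like growth factor binding protein, is listed in the authors' deposited table at a log2 change of -2.69 ± 0.22 (standard error) and an adjusted p of 1.46e-31. Its promoter is shown because the AP-2 pattern lies close to its start site, at chr1:72874866-72875115 on the minus strand, with the match GCCAGGGGC in capitals beginning at position -64 from the start.
Igfbp5: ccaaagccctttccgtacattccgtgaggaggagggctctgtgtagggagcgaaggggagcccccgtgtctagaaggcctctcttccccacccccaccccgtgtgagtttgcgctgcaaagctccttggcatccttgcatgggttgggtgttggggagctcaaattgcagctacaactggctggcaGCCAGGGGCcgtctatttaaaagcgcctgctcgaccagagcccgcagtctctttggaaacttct
The windows of the other target genes were not examined singly, so the match is not set against theirs. The Igfbp5 window is 1 of the 4509 of 32851 windows that hold the shorter palindrome. No statement about binding of AP-2 at Igfbp5 follows from it.

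The other 10 target genes were not called. Mmp2, a matrix metalloproteinase, stood at a log2 change of 0.11 ± 0.21 (standard error) in the authors' deposited table. Erbb2, a receptor tyrosine kinase, had 10 distal and 41 proximal counts and pooled levels of 3.41 and 4.25. Kit had 7 distal and 22 proximal counts and levels of 2.39 and 2.28, and Mcam had 12 and 40 counts and levels of 4.10 and 4.14. Erbb3, the partner receptor of Erbb2, had 4 distal and 10 proximal counts. Cdkn1a, the cell cycle inhibitor p21, had 2 distal and 25 proximal counts. Krt14, Cdh1 and Alx1 had 1 count each in all regions together, and Alx4 had 4 counts in 1 proximal region. The median over the 11 genes was 0.08 in the authors' deposited table, beside 0.07 over all genes, and -0.02 over the 7 genes with a mean of at least 1. Krt14 and Cdh1 are listed there at a log2 change of 1.19, although each had 0 distal and 1 proximal count.

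**Figure D4:**
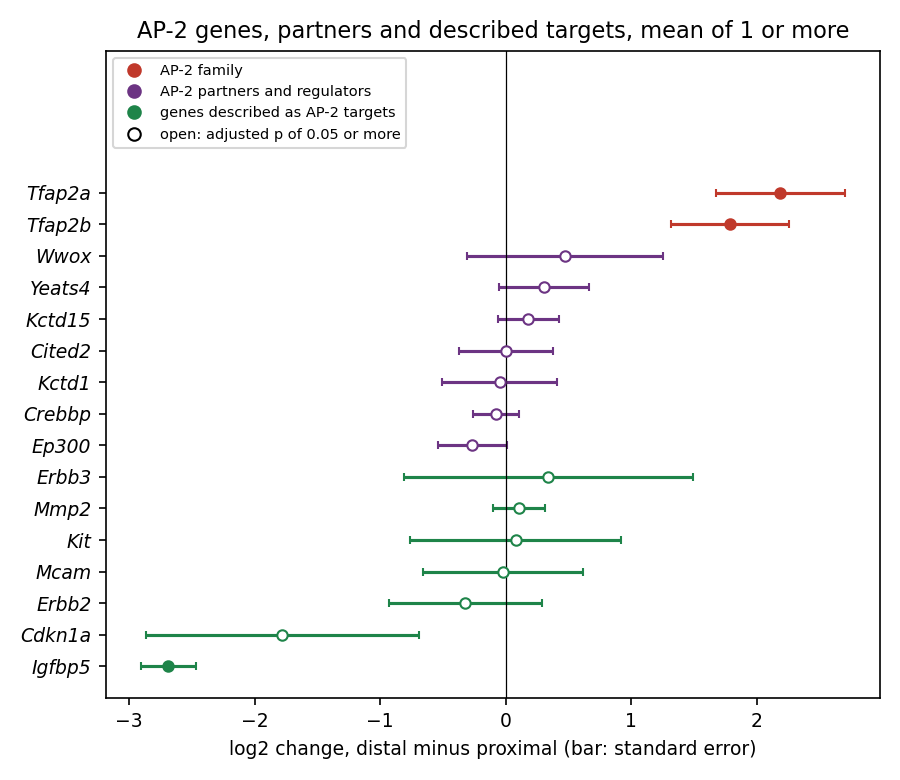
Log2 change (distal minus proximal) with its standard error for the AP-2 genes (red), their partners and regulators (purple) and genes described as their targets (green), limited to genes with a mean of at least 1 in the authors' deposited table. Filled points have an adjusted p under 0.05, and beside Tfap2a and Tfap2b this is Igfbp5 at -2.69.

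Markers of surface ectoderm and neural crest, where AP-2 genes are strongly expressed, were counted in the same regions. Of 15 surface ectoderm and apical ridge markers 5 had a row, Epcam, Cdh1, Krt14, Trp63 and Grhl3, and none was called, with 0 at an unadjusted p under 0.05 in the authors' deposited table. Together they had 3 counts in the distal library and 11 in the proximal library. The summed level was 1.02 in distal and 1.14 in proximal, with ranges over regions of 0 to 3.04 and 0.638 to 2.00. Cdh1, Krt14 and Trp63, which define epithelium and its basal layer, had 0 distal counts, and 3 counts, the limit taken for a count of 0, correspond to a normalized level of 1.02. Epcam stood at 0.683 in distal and 0.414 in proximal, on 2 and 4 counts, and Grhl3 at 0.341 and 0.207, on 1 and 2 counts. The authors' deposited table lists all 5 genes at log2 changes above 0, with a median of 1.18, also the 3 genes without a distal count. Counts this low do not show which side was higher, and the part of ectoderm in the AP-2 values was not tested. The other 10 markers were not analysed here.

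The summed level of neural crest, Schwann cell and melanocyte markers was lower in distal, where the AP-2 genes were higher. Of 8 genes reported here 6 had a row, and none was called, with 1, Ngfr, at an unadjusted p under 0.05 in the authors' deposited table. Together they had 14 distal and 116 proximal counts, a summed level of 4.78 in distal and 12.02 in proximal, with ranges over regions of 1.43 to 9.13 and 8.93 to 14.6. Sox10, the defining transcription factor of the lineage, had 0 distal and 9 proximal counts. Ngfr, the low-affinity neurotrophin receptor, had 1 distal and 53 proximal counts, and the authors' deposited table lists it at an adjusted p of 0.133. Mitf had 8 distal and 41 proximal counts. The median log2 change in the authors' deposited table was -0.10 over the 6 genes and -0.54 over the 3 with a mean of at least 1. The part of these cells in the AP-2 values was not tested.

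Markers of the labelled cell type were present. All 6 limb mesenchyme markers had a row, with means in the authors' deposited table of 159 for Prrx1, 99.2 for Pdgfra, 74.0 for Twist1, 21.5 for Tbx5, 14.7 for Prrx2 and 5.68 for Tbx4. Of these, 4 were not called, and 2 were called, both towards proximal, where 0.582% of all genes were. The authors' deposited table has Pdgfra, a growth factor receptor of mesenchyme, at a log2 change of -0.86 ± 0.15 (standard error, adjusted p 3.94e-06) and Tbx5, the forelimb T-box factor, at -1.41 ± 0.32 (adjusted p 0.00199). The AP-2 genes stood higher on the side where these 2 mesenchyme genes stood lower.

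Of 10 genes known from distal limb mesenchyme, 4 were called, all higher in distal, where 0.395% of all genes were. The median log2 change over the 10 was 0.66 in the authors' deposited table. The called genes Hoxd13, Msx1, Hoxd12 and Lhx2 changed by 1.16, 1.12, 1.10 and 1.02 there, with standard errors of 0.14, 0.17, 0.22 and 0.17. These estimates were lower than that of either AP-2 gene. The 95% interval of the Tfap2b change, 0.87 to 2.70, contains all 4 of them, so a larger change of Tfap2b is not shown. The Tfap2a interval, 1.18 to 3.19, begins just above the largest of them, Hoxd13. That comparison leaves out the standard error of Hoxd13, 0.14, and the family was picked on these values. A larger change of Tfap2a is therefore not shown either. Fgf10, the mesenchymal growth factor of the limb tip, had 23 distal and 45 proximal counts, and its regions ranged from 4.30 to 12.2 in distal and from 2.56 to 5.43 in proximal normalized counts. Mycn had 31 and 75 counts and ranged from 5.37 to 12.9 and from 2.26 to 11.2. The regions of both genes overlapped between the sides, as those of Tfap2b did. These 10 genes and the AP-2 genes come from the same 2 libraries.

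The genes most like each member were taken as the 3 with a mean within 1.5 times its own and the nearest log2 change, over the 2 libraries. For Tfap2a, among 2504 such genes, these were Adamts20, Arl4c and Nmu, at distances of 0.04, 0.51 and 0.51 in log2 change. Adamts20, a secreted metalloprotease, had 33 distal and 24 proximal counts, near the 30 and 22 of Tfap2a, which follows from how it was picked. Its distal regions ranged from 7.21 to 18.6 and its proximal regions from 1.24 to 4.60 normalized counts, without overlap, but its highest distal region was region 4 and not region 1. Arl4c had 25 and 28 counts and Nmu, which encodes neuromedin U, had 29 and 30, and the sides overlapped for both. Neither was called, with an adjusted p of 0.230 for Arl4c and 0.203 for Nmu in the authors' deposited table.

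For Tfap2b, among 1891 genes, the nearest were Rarg, Pank4 and Sdhd, at distances of 0.17, 0.40 and 0.42. Rarg, the retinoic acid receptor gamma, is listed in the authors' deposited table at a log2 change of 1.96 ± 0.33 (standard error) and an adjusted p of 1.89e-06. It had 80 distal and 67 proximal counts, and its regions ranged from 14.3 to 41.2 in distal and from 4.66 to 9.57 in proximal, without overlap. Its dispersion was 0.0614, below the 0.197 of Tfap2b, which had nearly as many distal counts. Pank4 had 55 and 68 counts, also without overlap.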

How the data were processed

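The deposited table holds the authors' comparison of 1 distal with 1 proximal library. Per the file headers it has the column names DESeq2 writes. The mean is a signal in normalized counts that the authors averaged over all regions. The log2 change, with its standard error, comes from the authors' fit, the deposited statistic is a score equal to their ratio, and the p-value and adjusted p are as deposited. The submitters' processing notes name mm 10 and GRCm 38. The aligner, counter and annotation are not given in the sources used here.

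No test was computed here. Calls are a deposited adjusted p under 0.05. Size factors of the 10 regions were read from means shared by at least 20 genes that are no sum of lower ones, and a region's side from whether a second count there raised or lowered the authors' log2 change. For a gene with a mean up to 20, sets of 10 whole counts with the deposited mean were listed. Except at the lowest means, these were only sets whose split between the sides could give the deposited log2 change. Sets far from that change by a fast estimate were set aside. A negative binomial model was fitted to the rest (fitted means held at or above 0.5, dispersion set to give the deposited standard error). A set was kept if it alone gave the deposited log2 change to 1.5e-09 and the next missed by at least 10 times that. For Tfap2a 1 of 1531 listed sets fitted and the next missed by 0.000594. For Tfap2b 1 of 36487051 did and the next missed by 4.12e-08. Of the 4312 genes with a mean under 1, 4310 gave the deposited log2 change to this tolerance. Tested on simulated data, 200 of 200 count sets were recovered. The simulated means lay below those of Tfap2b, Rarg, Pank4 and Mycn, so this recovery does not cover the counts of such genes. Counts were not recovered for Cited2, whose sets were too many to list, and were not sought for genes with a mean above 20. Folds are not given at 3 counts or fewer.

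Copies were searched with blastn 2.17.0. Python 3.11.15, numpy 2.4.6 and numba 0.67.0 were used. Members and lists were chosen with earlier results of these data known. Some listed genes are not reported here, and the counts, medians and sums of their lists leave them out. Named are all members, and of the genes reported the partners and family genes, called genes of the other lists and the 2 with the highest mean otherwise, the 3 genes most like each member and the 2 neighbours on each side; Erbb2, Erbb3, Kit, Mcam, Cdkn1a, the Alx genes, the ectoderm and crest markers, the uncalled mesenchyme markers, Fgf10 and Mycn were named after their values were seen.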

Additional observations from a re-analysis of the deposited data

How the results depend on the processing

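The number of members called was 2, and 1 with an adjusted p threshold of 0.01, where Tfap2b is lost, and 1 when p-values were adjusted over the genes whose mean reaches 10, which leaves Tfap2a out. It was 2 with a threshold of 0.1, with adjustment over all listed genes or those whose mean reaches 1, and with log2 changes centred on the median of all genes (0.07) or of genes above the median mean (-0.02). The log2 change stayed between 2.12 and 2.23 for Tfap2a and between 1.72 and 1.83 for Tfap2b under centring, pooled counts with pseudocounts of 0, 0.5 and 1, and equal weight per region. Leaving out 1 region at a time gave 1.92 to 2.42 and 1.39 to 2.05. Without distal region 1, 5 or proximal region 2 or 4, the Tfap2b ratio of change to standard error fell under that of any call. Among the other list genes, Cited2 changed sign on centring, to -0.064, and the other centred values kept their sign and side of the limit, and the median of the target genes went from 0.08 to -0.020 over genes whose mean reaches 1; both settings were chosen after seeing the data. No value could be computed for Tfap2c. No paired analysis was possible because the 2 libraries share no region and the labels pair none. Depth limits the distal side most: 3 counts there correspond to a normalized level of 1.02, against 0.311 in proximal.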
